A study of Mus musculus with 24 samples.

Results

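Transcripts of 10 genes that encode the ATPases and the shared core subunits of the SWI/SNF chromatin remodellers were followed across 24 RNA-seq libraries of mouse myoblasts. The genes were taken by name from the count table, which lists 55291 gene symbols, and all 10 were found and passed the filter on low counts in every comparison. They are the ATPases Smarca4 and Smarca2, the core subunit Smarcb1, the scaffold subunits Smarcc1 and Smarcc2, the BAF60 subunits Smarcd1, Smarcd2 and Smarcd3, the HMG-box subunit Smarce1 and the actin-related subunit Actl6a. The study asked how depletion of a subunit particular to 1 SWI/SNF subcomplex changes the response of proliferating myoblasts to copper and zinc. Baf180 (gene Pbrm1), Baf250a (gene Arid1a) or Brd9 was knocked down (KD) with a stably expressed shRNA, and a scrambled shRNA (scr) served as the control. Cells of each of the 4 lines received no added metal (NT), 100 µM CuSO4 (Cu) or 50 µM ZnSO4 (Zn), with 2 biological replicates in each of the 12 conditions. All groups, scr included, carry an shRNA. The paper describes C2C12 cells transduced with virus and selected, whereas the sample labels name primary myoblasts and a lipofectamine knockdown. The libraries are described as independent biological replicates, and whether those of a line came from separate transductions was not stated. A difference between lines can therefore not be told apart from a difference between transduced populations, and p-values measure only the spread between the libraries.

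SWI/SNF complexes use the energy of ATP to slide or evict nucleosomes, and each complex holds a single ATPase, either BRG1 (Smarca4) or BRM (Smarca2). Canonical BAF with an ARID1 subunit, PBAF with Baf180, and non-canonical BAF with Brd9 are built around the same ATPases. Each holds scaffold and BAF60 subunits, but not necessarily every paralog. Smarcb1 and Smarce1 belong to canonical BAF and PBAF and are missing from non-canonical BAF. In muscle, BAF60C (Smarcd3) is known as the BAF60 subunit that is brought to muscle genes with MyoD.

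On GRCm38 (GENCODE M21), the build of the files, Smarca4 spans chr9:21616169-21704230 and Smarca2 chr19:26605050-26778322, both on the plus strand. Smarcb1 lies at chr10:75896769-75921617 on the minus strand, and the scaffold genes Smarcc1 and Smarcc2 at chr9:110117708-110240178 and chr10:128459248-128490482 on the plus strand. Of the BAF60 genes, Smarcd1 lies at chr15:99702129-99713991 on the plus strand, and Smarcd2 and Smarcd3 at chr11:106263179-106272972 and chr5:24590818-24624411 on the minus strand. Smarce1 spans chr11:99209047-99231017 on the minus strand and Actl6a chr3:32706298-32726973 on the plus strand. Exons of Smarca4 share 99 bases with Gm27373 on the same strand, and the other 9 genes share none with a gene on their strand. Genes on the opposite strand overlap Smarca2, Smarcc1, Smarcd1, Smarcd3 and Actl6a, and reads were counted by strand.

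The shRNA target sites are shown because they define the 3 KD lines and scr. The supplement of the study lists 2 shRNAs for each targeted gene and 1 scrambled shRNA, and it was not stated which of a pair was used for these libraries. Each target is 21 bases long, printed 5′ to 3′ in the sense direction, with the 7 bases that pair with the seed of the guide strand in capitals.
Baf180 shRNA 1: tgtgaagttggtcCTAGTTTa
Baf180 shRNA 2: gtgcaatatccagACTATTAt
Baf250a shRNA 1: ctttatagtatggCGAGTTAa
Baf250a shRNA 2: cctaggcagcctaACTATAAt
Brd9 shRNA 1: tggactttggcacGATGAAAg
Brd9 shRNA 2: caccgaatggtgtCCAATAAg
scr: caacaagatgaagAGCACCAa
Each of the 6 gene-directed targets had an exact match in some of its own gene's GENCODE M21 transcripts, namely in 4 and 13 of 17 for Pbrm1, 2 and 4 of 6 for Arid1a, and 8 and 6 of 12 for Brd9, in the order of the shRNAs. No target had an exact match in a transcript of the 10 genes, and the longest run of identical bases was 12, between the second Baf180 target and Smarcd1. The scrambled sequence shared a run of 11 bases with Smarca2.

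Total counts per library ran from 495778 to 75179394, with a median of 22158430. The smallest total belongs to Baf250a KD Zn replicate 2, in which 12613 symbols were detected against at least 20114 in every other library, and the next smallest total was 12719173. Values without this library are given beside several of the results on Baf250a KD that include it. Without it, the log2 fold changes of Baf250a KD over all treatments were −0.49 for Smarcb1, 0.56 for Smarcd1, −0.68 for Smarcd3 and −0.80 for Actl6a. All of these were still called, and Smarca4 at 0.06 was not. Comparisons of Baf250a KD in the Zn libraries alone include it as 1 of the 2 libraries of that line. The targeted transcripts were lower in their own line, with log2 fold changes over all treatments of −1.48 for Pbrm1 in Baf180 KD, −1.43 for Arid1a in Baf250a KD and −0.87 for Brd9 in Brd9 KD (edgeR adjusted p = 8.54e-08, 2.01e-14 and 2.35e-08). Without metal the values were −0.76, −1.53 and −0.76 (edgeR adjusted p = 0.00274, 5.31e-08 and 0.00600). Pbrm1 itself was higher in scr with Zn than without metal, by 0.98 (edgeR adjusted p = 0.0290). Calls in that comparison depended on the processing, with 2645 of 15002 genes called in this fit. Only 25 were called with GC content and length trends removed, and 14 with a replicate block. The value of Pbrm1 under these alternatives is not given. Of 7 myoblast markers, 6 exceeded 5 CPM in every library of each line, and Pax7 did not. Their summed level was 3437 to 5025 CPM in scr, 2180 to 2390 in Baf180 KD, 1575 to 1721 in Baf250a KD and 2346 to 2870 in Brd9 KD. Single markers did not all follow the sum, since Myod1 lay above all scr libraries in all 6 Baf250a KD libraries and Pax7 did so in all 6 of Baf180 KD and of Brd9 KD. The summed level of 5 fibroblast markers was 799 to 1088 CPM in scr, 1309 to 1670 in Baf180 KD, 2318 to 3591 in Baf250a KD and, overlapping scr, 916 to 1230 in Brd9 KD, with Lum at 0 in every scr and Brd9 KD library. The sum of 8 myotube markers was 80.1 to 115 CPM in scr, 133 to 188 in Baf180 KD, 65.2 to 82.7 in Baf250a KD and 37.8 to 45.4 in Brd9 KD. Single markers again did not all follow the sums. In Baf250a KD, Myh3 lay above all scr libraries in all 6 libraries, while Acta1 and Mylpf lay below in all 6. In Baf180 KD, Myog, Mymk, Mymx and Myh3 lay above in all 6, while Tnnt3 lay below in 3. In Brd9 KD, the fibroblast markers Pdgfra and Ly6a lay above all scr libraries in all 6, Dcn in 5 and Col3a1 in 3. The part of these differences in the results on the 10 genes was not tested.

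The RNA of the ATPase Smarca2 was 3.89- to 4.95-fold higher in the 3 KD lines without metal, and the RNA of its paralog Smarca4 did not pass the test in any of them. Levels are given as CPM, the read count scaled to library size with TMM factors. Without metal, the 2 scr libraries held 5.35 and 3.34 CPM of Smarca2. The untreated Baf180 KD libraries held 16.0 and 16.9 CPM, those of Baf250a KD 22.4 and 19.9 CPM, and those of Brd9 KD 18.5 and 15.7 CPM. No untreated KD library overlapped scr. The log2 fold change against scr was 1.96 (SE 0.22) in Baf180 KD, 2.31 (SE 0.20) in Baf250a KD and 2.01 (SE 0.23) in Brd9 KD. The edgeR adjusted p values were 3.01e-05, 8.67e-07 and 0.000845. The 3 comparisons share the scr libraries. In bulk RNA, fewer cells of a type and less RNA per cell cannot be told apart.

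Over the 6 libraries of a line with all treatments, Smarca2 ran from 3.34 to 5.35 CPM in scr with a median of 4.61 CPM. In Baf180 KD it ran from 11.4 to 16.9 CPM (median 15.3), and in Brd9 KD from 15.7 to 18.5 CPM (median 16.2). Every library of these 2 lines lay above every scr library. In Baf250a KD the range was 3.89 to 23.3 CPM (median 19.7), and the lowest value came from the library of fewest counts. That library held 2 Smarca2 counts, with an exact Poisson 95% interval of 0.471 to 14.0 CPM for counting error only, while the other 5 Baf250a KD libraries held 17.7 to 23.3 CPM. With treatment as a term in the fit, the log2 fold change was 1.67 in Baf180 KD, 2.14 in Baf250a KD and 1.88 in Brd9 KD (edgeR adjusted p = 8.01e-11, 6.70e-13 and 2.46e-11). Without the library of fewest counts the value for Baf250a KD was 2.19. The increase passed the threshold in each treatment fitted alone, with log2 fold changes of 1.33, 2.05 and 1.79 in Cu and of 1.68, 2.21 and 1.84 in Zn, in the same order of lines.

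**Figure D1:**
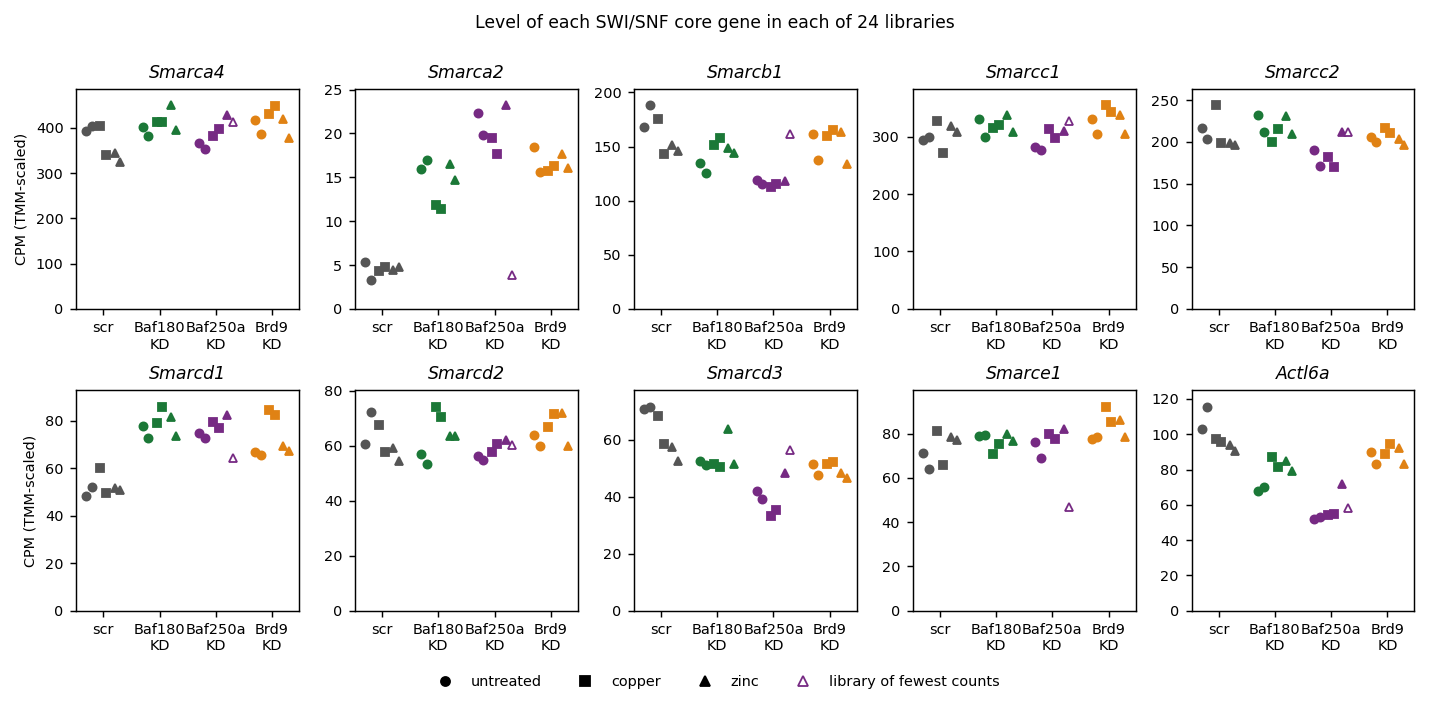
Level in CPM (linear axis from 0) of each of the 10 genes in each of the 24 libraries, grouped by line, with circles for untreated, squares for Cu and triangles for Zn; the open triangle is Baf250a KD Zn replicate 2. Smarca2 lies at 3.34 to 5.35 CPM in scr and at 11.4 CPM or more in every KD library but the open one.

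Smarca4, the SWI/SNF ATPase with the higher level in every line, held 393 and 404 CPM in the untreated scr libraries. The untreated KD libraries held 401 and 382 CPM in Baf180 KD, 367 and 352 CPM in Baf250a KD and 417 and 386 CPM in Brd9 KD, so that the Baf180 and Brd9 KD ranges overlapped scr and that of Baf250a KD lay below it. The log2 fold changes were −0.01 (SE 0.10), −0.15 (SE 0.10) and 0.03 (SE 0.09), with edgeR adjusted p values of 0.951, 0.207 and 0.830. Over all treatments they were 0.15, 0.08 and 0.17, and none passed the threshold (edgeR adjusted p = 0.0646, 0.337 and 0.0593). In the Zn libraries alone Smarca4 was higher in Baf180 KD by 0.28 and in Baf250a KD by 0.34 on the log2 scale (edgeR adjusted p = 0.00936 and 0.0144).

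Compared per length, Smarca2 was the lowest of the 10 genes in every line, and Smarca4 was far above it. Per kb of merged exons Smarca4 stood at 56.8 ± 5.52 CPM per kb (SD, n = 6) and Smarca2 at 0.315 ± 0.0467 CPM per kb in scr. Smarca2 thus made up 0.558% ± 0.108 of the summed per-length level of both ATPases in scr. The share was 1.59% ± 0.285 in Baf180 KD (n = 6), 2.37% ± 0.268 in Baf250a KD (n = 5, without the library of fewest counts) and 1.80% ± 0.147 in Brd9 KD (n = 6). The annotated exons of Smarca2 add up to 14269 bases over 46 transcripts, so the merged length lowers its value, and with the longest coding transcript of each gene, a choice added after the data were seen, the shares were 1.31%, 3.69%, 5.44% and 4.17%. With either length, Smarca4 kept at least 93.8% of the ATPase level in these 23 libraries.

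The ratio of the ATPases within a library does not depend on the scaling of the library. The log2 count ratio of Smarca2 over Smarca4 was −6.36 ± 0.309 (SD, n = 6) in scr and −4.83 ± 0.270 in Baf180 KD, −4.60 ± 0.902 in Baf250a KD and −4.63 ± 0.122 in Brd9 KD (n = 6 each). Differences from scr were 1.53, 1.76 and 1.72 on the log2 scale. A two-sided exact permutation test with labels permuted within each treatment gave p = 0.00926 for Baf180 KD and for Brd9 KD, the smallest that the 216 permutations can give, and p = 0.0278 for Baf250a KD, where 5 of 6 libraries lay above all scr libraries. Adjusted over the 12 ratio tests run, these are 0.0139, 0.0139 and 0.0333. Without the library of fewest counts the Baf250a KD difference was 2.13, and with it as the only Zn library of the line, that is without Baf250a KD Zn replicate 1, the difference was 1.39 and its adjusted exact p was 0.0556.

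**Figure D2:**
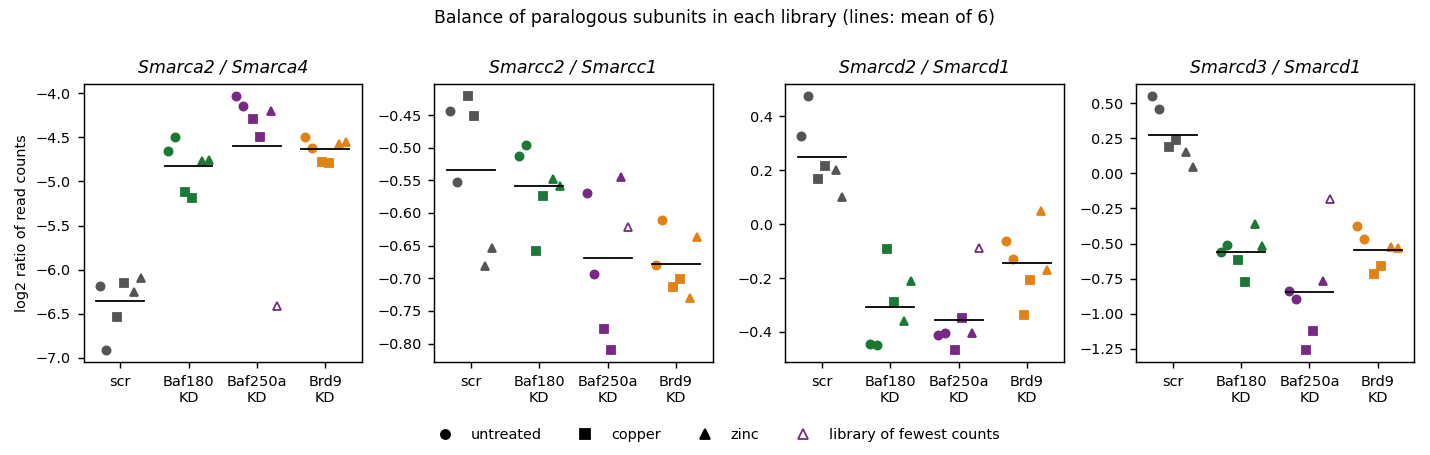
Log2 ratio of the read counts of paralogous subunits in each of the 24 libraries, by line, with symbols for treatment and a horizontal line at the mean of the 6 libraries; the axes differ between panels and do not start at 0. Smarca2 over Smarca4 averages −6.36 in scr and −4.83 to −4.60 in the KD lines, and both BAF60 ratios are lower in every KD library than in any scr library.

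The upstream sequences of both ATPase genes and of Smarcd1 are shown because Smarca2 and Smarcd1 were the genes that were higher in all 3 KD lines, with Smarca4 as the paralog that was not. Sequences are from RefSeq on GRCm38.p6, 5′ to 3′ on the strand of the gene, and stop before the first annotated transcript start. Capitals mark matches on either strand to TGCGCNC or TGCACNC, the core of the metal response element bound by the metal-sensing factor MTF1.
Smarca2, chr19:26604910-26605049, plus strand: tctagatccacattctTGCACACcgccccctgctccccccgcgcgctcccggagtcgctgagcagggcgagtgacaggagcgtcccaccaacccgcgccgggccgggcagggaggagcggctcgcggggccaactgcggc
Smarca4, chr9:21615919-21616168, plus strand: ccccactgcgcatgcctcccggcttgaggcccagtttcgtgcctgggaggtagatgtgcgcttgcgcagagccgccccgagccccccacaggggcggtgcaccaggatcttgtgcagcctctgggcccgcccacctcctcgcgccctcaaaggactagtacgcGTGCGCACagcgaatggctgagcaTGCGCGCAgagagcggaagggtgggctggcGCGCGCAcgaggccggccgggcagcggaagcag
Smarcd1, chr15:99702037-99702128, plus strand: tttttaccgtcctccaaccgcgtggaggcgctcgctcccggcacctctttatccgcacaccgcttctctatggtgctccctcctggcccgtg
In windows of 300 bases, from 250 before to 50 after a RefSeq start, the motif was found in 6 of the 9 genes that had a window and in 25.7% of all 32841 windows. Smarca4 held 5 matches, among them 2 pairs that overlap on opposite strands, Smarca2 held 1, and Smarcd1, Smarcc2 and Actl6a held none. These windows are rich in C and G, with 21 or more CG dinucleotides in 8 of the 9 genes against a median of 7 over all windows, and a match is a description of letters only. No window was matched for Smarce1.

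The core subunit Smarcb1, which anchors the complex to the nucleosome, was lower in 2 of the 3 lines without metal. The untreated scr libraries held 168 and 188 CPM, against 135 and 126 CPM in Baf180 KD, 119 and 115 CPM in Baf250a KD and 162 and 138 CPM in Brd9 KD. All KD values lay below both scr values. The log2 fold change was −0.44 (SE 0.11) in Baf180 KD and −0.61 (SE 0.10) in Baf250a KD (edgeR adjusted p = 0.00662 and 0.000306), and −0.24 (SE 0.11) in Brd9 KD did not pass the threshold (edgeR adjusted p = 0.123). The call in Baf180 KD was lost without Baf180 KD NT replicate 2, with an edgeR adjusted p of 0.0769. Over all treatments Smarcb1 stayed lower in Baf250a KD, by −0.44 (edgeR adjusted p = 0.000105), while the values of −0.17 in Baf180 KD and −0.08 in Brd9 KD did not pass (edgeR adjusted p = 0.0945 and 0.540). The 5 deeper Baf250a KD libraries ran from 112 to 119 CPM, below the lowest scr library at 143 CPM, and the library of fewest counts held 161 CPM.

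Neither scaffold subunit passed the threshold in any KD line. Smarcc1 (BAF155) and Smarcc2 (BAF170) form the dimer on which the rest of the complex is assembled. Smarcc1 ran from 272 to 327 CPM in scr and from 276 to 355 CPM over the 18 KD libraries. Smarcc2 ran from 196 to 244 CPM in scr and from 170 to 232 CPM in the KD libraries. Their log2 fold changes without metal lay between −0.22 and 0.12. Over all treatments the Smarcc2 value of −0.16 in Baf250a KD had an edgeR adjusted p of 0.0505, and without the library of fewest counts it was −0.18 with an adjusted p of 0.0281. Both genes were close in level per kb, with Smarcc2 at 49.3% ± 1.96 (SD, n = 6) of their summed per-length level in scr and 46.8% ± 0.804 (n = 6) in Brd9 KD. The log2 ratio of Smarcc2 over Smarcc1 was lower in Brd9 KD by 0.14 (difference −0.14, exact permutation p = 0.0278, adjusted 0.0333, with 3 of 6 libraries below all scr libraries), a call lost without Brd9 KD NT replicate 1, Brd9 KD NT replicate 2, Brd9 KD Zn replicate 1, scr NT replicate 1 or scr Zn replicate 2 and with GC content and length trends removed. It did not pass in Baf180 KD (−0.02, exact p = 0.611) or Baf250a KD (−0.14, exact p = 0.130).

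Among the BAF60 subunits, which link the complex to transcription factors and of which 1 is held by a complex, Smarcd1 was higher and Smarcd3 lower in all 3 KD lines. Smarcd1 (BAF60A) held 48.3 and 52.1 CPM in the untreated scr libraries, against 77.6 and 72.9 CPM in Baf180 KD, 74.9 and 72.7 CPM in Baf250a KD and 67.0 and 65.5 CPM in Brd9 KD. The log2 fold change was 0.60 (SE 0.11), 0.56 (SE 0.11) and 0.42 (SE 0.10), with edgeR adjusted p values of 0.00112, 0.000629 and 0.0198. The untreated Brd9 KD call was lost without either Brd9 KD NT replicate and with a replicate block, where the adjusted p reached 0.166. Over all treatments the scr libraries ran from 48.3 to 60.1 CPM with a median of 51.3 CPM. The lowest of the 18 KD libraries held 64.2 CPM, the medians of the lines were 78.3, 76.0 and 68.4 CPM, and no KD library overlapped scr. The fit over all treatments gave 0.59, 0.55 and 0.48 (edgeR adjusted p = 1.29e-08, 4.84e-08 and 9.79e-07).

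Smarcd3 (BAF60C) held 70.7 and 71.6 CPM in untreated scr, against 52.5 and 51.3 CPM in Baf180 KD, 41.8 and 39.2 CPM in Baf250a KD and 51.6 and 47.4 CPM in Brd9 KD. All 6 KD values lay below scr, and those of Baf250a KD were the lowest. The log2 fold change was −0.44 (SE 0.11), −0.81 (SE 0.11) and −0.51 (SE 0.10), with edgeR adjusted p values of 0.00625, 3.08e-05 and 0.00953. The calls in Baf180 and Brd9 KD were lost without either untreated replicate of the KD line, with edgeR adjusted p values up to 0.0676 and 0.105. Over all treatments it was −0.24, −0.64 and −0.35 (edgeR adjusted p = 0.0366, 3.51e-06 and 0.00544). In Baf180 KD the call over all treatments was lost in 10 of 21 alternatives, and in the Zn libraries alone the log2 fold change was −0.0014. The Zn libraries alone gave −0.18 in Baf250a KD and −0.24 in Brd9 KD, and neither passed (edgeR adjusted p = 0.115 and 0.0540). In the Cu libraries alone Smarcd3 stood at −0.33 in Baf180 KD, −0.86 in Baf250a KD and −0.31 in Brd9 KD. Of these only the Baf250a KD value passed (edgeR adjusted p = 0.102, 0.00113 and 0.132). Smarcd2 (BAF60B) held 60.7 and 72.4 CPM in untreated scr and 53.5 to 64.1 CPM in the untreated KD libraries, and its log2 fold changes of −0.25, −0.26 and −0.08 did not pass the threshold.

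Within the BAF60 group, the ratio of Smarcd3 over Smarcd1 moved from 0.27 ± 0.193 (log2, SD, n = 6) in scr to −0.56 ± 0.136 in Baf180 KD, −0.84 ± 0.372 in Baf250a KD and −0.55 ± 0.126 in Brd9 KD (n = 6 each). The ratio of Smarcd2 over Smarcd1 moved from 0.25 ± 0.133 in scr to −0.31 ± 0.140, −0.35 ± 0.135 and −0.14 ± 0.130. All 6 libraries of each KD line lay below all scr libraries in both ratios, and each of the 6 tests gave the smallest exact permutation p that the design allows, 0.00926 (adjusted 0.0139). Smarcd1, itself higher in the KD lines, is the denominator of both ratios, and the 6 tests share the scr libraries. These tests are therefore not separate from each other or from the Smarcd1 result. The differences from scr were −0.83, −1.12 and −0.82 for Smarcd3 and −0.55, −0.60 and −0.39 for Smarcd2. Smarcd1 made up 30.5% ± 2.23 of the summed BAF60 level per kb of exons in scr (n = 6), 40.9% ± 1.47 in Baf180 KD (n = 6), 44.5% ± 1.32 in Baf250a KD (n = 5) and 39.2% ± 2.00 in Brd9 KD (n = 6). Which of the 3 genes led depended on the length used, since per kb of the longest coding transcript Smarcd3 held 48.6% ± 2.26 in scr and Smarcd1 21.2% ± 1.90, with Smarcd1 at 29.5% to 34.7% in the KD lines.

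Smarce1 (BAF57), an HMG-box protein that binds DNA, was not called in any line. The untreated libraries held 71.1 and 64.1 CPM in scr, 79.0 and 79.4 CPM in Baf180 KD, 76.2 and 69.2 CPM in Baf250a KD and 77.6 and 78.6 CPM in Brd9 KD. Both Baf180 KD and Brd9 KD values lay above scr, and log2 fold changes of 0.25, 0.11 and 0.23 did not pass (edgeR adjusted p = 0.0899, 0.423 and 0.141). Over all treatments the value in Brd9 KD was 0.19 (edgeR adjusted p = 0.0734), and without the library of fewest counts, which held 46.7 CPM against at least 64.1 CPM in every other library, the same value had an adjusted p of 0.0248.

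Actl6a (BAF53A), the actin-related subunit of dividing cells, was lowest in Baf250a KD. The untreated scr libraries held 103 and 116 CPM, against 67.9 and 69.9 CPM in Baf180 KD, 51.8 and 53.2 CPM in Baf250a KD and 90.0 and 83.3 CPM in Brd9 KD. All 6 KD values lay below both scr values, and the 3 lines did not overlap each other. The log2 fold change was −0.65 (SE 0.11), −1.06 (SE 0.11) and −0.32 (SE 0.10), with edgeR adjusted p values of 0.000750, 3.55e-06 and 0.0475. The call in Brd9 KD was lost in 6 of 11 alternatives, among them the fits without Brd9 KD NT replicate 1, Brd9 KD NT replicate 2 or scr NT replicate 2, and its adjusted p ran from 0.000146 to 0.264. Over all treatments the log2 fold change was −0.35 in Baf180 KD and −0.80 in Baf250a KD (edgeR adjusted p = 0.000886 and 7.33e-09), where every library lay below every scr library, and −0.16 in Brd9 KD (edgeR adjusted p = 0.126). The Cu libraries alone gave −0.20 in Baf180 KD, not called, and −0.81 in Baf250a KD, called (edgeR adjusted p = 0.248 and 0.000602). The Zn libraries alone gave −0.23 and −0.40 in these lines, both called (edgeR adjusted p = 0.0155 and 0.000154). The neuronal paralog of Actl6a, Actl6b, had no count in any library.

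**Figure D3:**
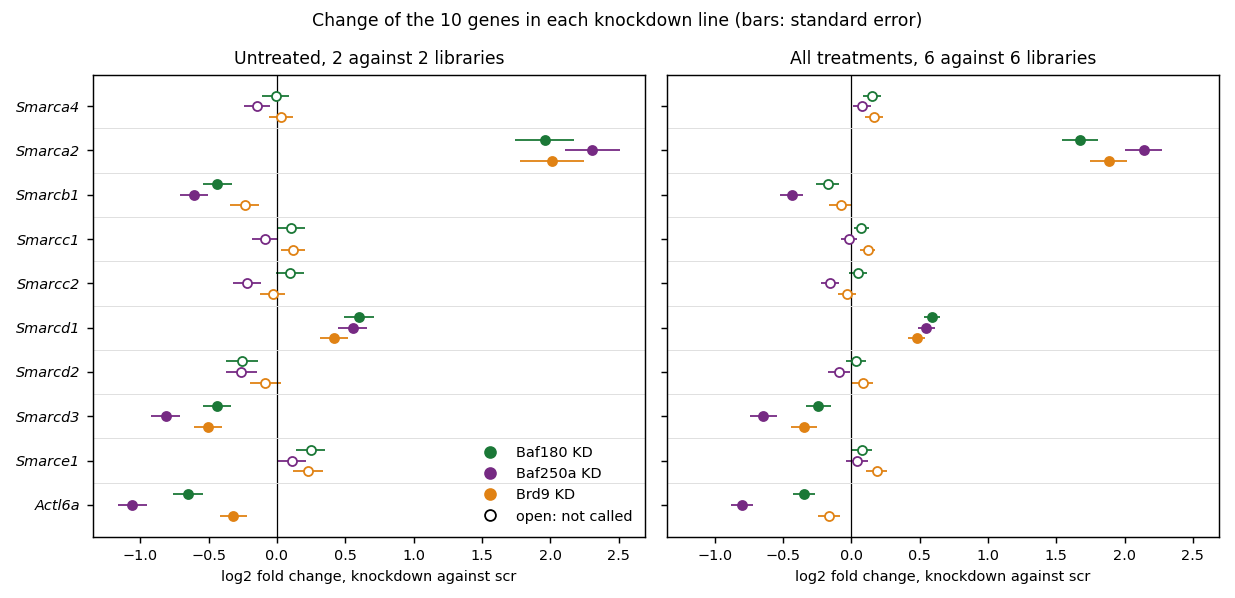
Log2 fold change of each of the 10 genes in Baf180, Baf250a and Brd9 KD against scr (edgeR, bars are 1 SE; filled points passed an adjusted p of 0.05, open points did not), without metal on the left and over all treatments on the right. Smarca2 lies between 1.67 and 2.31 in both panels, Smarcd1 between 0.42 and 0.60, and Smarcd3 and Actl6a lie below 0.

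Counted together, 2 of the 10 genes were higher and 3 lower in untreated Baf180 KD, where 41.0% of all genes tested were called, 21.7% as higher and 19.3% as lower. The counts were 2 higher and 3 lower in Baf250a KD, against 57.8% of all genes, with 28.9% in each direction. In Brd9 KD they were 2 higher and 2 lower, against 29.2% of all genes, with 15.1% higher and 14.1% lower. Over all treatments 2 were higher and 2 lower in Baf180 KD, against 43.4% of all genes (19.4% lower and the rest higher), 2 higher and 3 lower in Baf250a KD, against 56.4% (27.7% higher, 28.7% lower), and 2 higher and 1 lower in Brd9 KD, against 30.4% (16.8% higher, 13.6% lower). The 10 genes were thus called about as often as all genes. The median log2 fold change of the 10 genes without metal was 0.04, −0.18 and −0.0016, beside 0.03, 0.0030 and 0.01 over all genes tested. Over all treatments, 2 of the 10 genes in Baf180 KD, 1 in Baf250a KD and 2 in Brd9 KD had every library above scr, as did 14.6%, 14.0% and 9.33% of all genes. Every library lay below scr for 1 gene in each line, against 8.85%, 13.5% and 6.36% of all genes.

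The KD lines were also compared with each other over all treatments. Between Baf180 and Baf250a KD, 5 of the 10 genes were called, against 40.6% of all genes, 21.2% higher and 19.4% lower in Baf180 KD. Smarcb1, Smarcc2, Smarcd3 and Actl6a were higher in Baf180 KD by 0.26, 0.20, 0.40 and 0.45 on the log2 scale, and Smarca2 was lower, at −0.47 (edgeR adjusted p = 0.0161, 0.0176, 0.00175, 8.30e-05 and 0.00473). Without the library of fewest counts the values were 0.32, 0.23, 0.44, 0.46 and −0.52, all still called. The Smarcc2 call was lost with GC content and length trends removed (0.13, edgeR adjusted p = 0.139), with a filter of at least 1 count, and without Baf250a KD Cu replicate 2 or Baf250a KD NT replicate 2. Between Baf250a and Brd9 KD, 4 genes were called and all were lower in Baf250a KD, against 49.8% of all genes (25.0% higher, 24.8% lower), with Actl6a at −0.64, Smarcb1 at −0.36, Smarcd3 at −0.30 and Smarcc1 at −0.14 (edgeR adjusted p = 5.10e-07, 0.00106, 0.0133 and 0.0448). The Smarcc1 call was lost in 9 of 17 alternatives, the Smarcd3 call without Baf250a KD Cu replicate 1 (edgeR adjusted p = 0.0529), and without the library of fewest counts the 4 values were −0.64, −0.41, −0.33 and −0.15, all still called, and Smarca2 was also called, at 0.31 (edgeR adjusted p = 0.0124). Between Baf180 and Brd9 KD edgeR called 0 of the 10 genes, against 29.7% of all genes (17.3% higher, 12.5% lower). DESeq2 called 1 of the 10, against 26.8%. An unadjusted p under 0.05 by edgeR was reached by 1 of the 10 and by 6429 of all 16524 genes.

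The metals changed few of the 10 genes within a line. In scr, Cu and Zn gave 0 calls each by edgeR, against 0.0333% and 17.6% of all genes, and by DESeq2, against 0.416% and 23.7%. With GC content and length trends removed or with a replicate block, Zn again gave 0 calls, against 0.167% and 0.0933%. By edgeR, 0 and 2 of the 10 had an unadjusted p under 0.05 with Cu and Zn, as did 1559 and 5287 of all 15002 genes. In Baf180 KD with Cu, 2 genes were called, against 13.8% of all genes. Smarca2 fell from 16.0 and 16.9 CPM to 11.9 and 11.4 CPM (log2 fold change −0.54, SE 0.12, edgeR adjusted p = 0.0223), and Smarcd2 rose from 57.0 and 53.5 CPM to 74.3 and 70.4 CPM (0.35, SE 0.08, edgeR adjusted p = 0.0257). The untreated and Cu values did not overlap for either gene. Without Baf180 KD Cu replicate 1 or Baf180 KD NT replicate 2 neither was called, and without either of the other libraries 1 was. With trends on GC content and transcript length removed library by library, the values were −0.42 and 0.22, and neither passed (edgeR adjusted p = 0.0650 and 0.132). With all 24 libraries in the fit Smarca2 stood at −0.50 and did not pass (edgeR adjusted p = 0.0806). With a replicate block 4 of the 10 genes were called, 3 higher and 1 lower, against 25.5% of all genes. Smarca2 still lay above every scr library in these Cu libraries.

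In Baf250a KD with Zn, 1 of the 10 genes was called, against 15.9% of all genes. Actl6a held 51.8 and 53.2 CPM without metal and 71.5 and 58.3 CPM with Zn, the second being the library of fewest counts (log2 fold change 0.41, SE 0.11, edgeR adjusted p = 0.0110). Without that library, with 1 Zn library left, the value was 0.44 and Smarca4 was called as well, at 0.24 (edgeR adjusted p = 0.00208 and 0.0377). Leaving out any of the other 3 libraries of this comparison gave 0 calls, and DESeq2 called 0 of the 10. The other 4 metal comparisons gave 0 calls by edgeR and by DESeq2, namely Zn in Baf180 KD, Cu in Baf250a KD and both metals in Brd9 KD, against 0.0197%, 1.27%, 0.274% and 0.0334% of all genes by edgeR. In these 4, 1, 1, 1 and 0 of the 10 genes had an unadjusted p under 0.05. Of all genes tested, 1999 of 15241, 1530 of 14706, 2426 of 14978 and 451 of 14978 did, in the same order.

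A test of the difference between the metal response of a KD line and that of scr called some of the 10 genes, all with a positive difference. For Zn, 4 genes were called in Baf180 KD and 3 in Baf250a KD, against 28.7% and 30.5% of all genes (16.1% and 17.3% with a positive difference), and 0 in Brd9 KD, against 11.1%. For Cu, 2 genes were called in Baf180 KD, against 12.8% (5.39% with a positive difference), and 0 in Baf250a and Brd9 KD, against 0.0121% and 0.0363%. In the 3 comparisons with 0 calls, 3, 0 and 1 of the 10 genes had an unadjusted p under 0.05 for Zn in Brd9 KD, Cu in Baf250a KD and Cu in Brd9 KD. Of all 16524 genes, 4953, 1274 and 2759 did. DESeq2 called 0 of the 10 in each, against 16.6%, 0.115% and 0.201% of all genes. Actl6a was called for both metals in Baf180 KD and for Zn in Baf250a KD. With Zn it moved from 103 and 116 CPM to 93.7 and 90.5 CPM with Zn in scr, from 67.9 and 69.9 CPM to 85.1 and 79.1 CPM in Baf180 KD, and from 51.8 and 53.2 CPM to 71.5 and 58.3 CPM in Baf250a KD. Thus both Zn libraries were lower than both untreated ones in scr and higher in these 2 KD lines. The difference was 0.50 (SE 0.13) in Baf180 KD and 0.64 (SE 0.14) in Baf250a KD (edgeR adjusted p = 0.00608 and 0.00159), and without the library of fewest counts the latter was 0.69 (edgeR adjusted p = 0.000861). Without Baf250a KD Zn replicate 1, which leaves the library of fewest counts as the only Zn library of that line, it was 0.39 and did not pass (edgeR adjusted p = 0.425). For Cu in Baf180 KD the difference was 0.47 for Actl6a and 0.48 for Smarcd2 (edgeR adjusted p = 0.0211 and 0.0381), and these calls were lost in 7 and 8 of 14 alternatives.

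The other called differences in the Zn response did not pass once each library was corrected for the GC content and length of its genes. Smarcd3 differed by 0.52 in Baf180 KD and 0.67 in Baf250a KD, and Smarca4 by 0.37 and 0.48 (edgeR adjusted p = 0.0115, 0.00348, 0.0392 and 0.00940). Smarcd2 differed by 0.43 in Baf180 KD (edgeR adjusted p = 0.0341). The annotated transcripts of Smarcd3 and Smarca4 had the highest GC content of the 10 genes, 59.6% and 56.1%, beside 48.9% for Actl6a. Smarcd1, at 55.4%, was not called, with differences of 0.0091 in Baf180 KD and 0.13 in Baf250a KD without the library of fewest counts. The slope of log2 level on GC content, per 10 percentage points, averaged 0.22 in untreated scr, −0.34 in scr with Zn, −0.07 and 0.15 in Baf180 KD without and with Zn, and −0.12 and 0.17 in Baf250a KD. The part of GC content or length in the lost calls was not tested. After the correction, Smarcd3 stood at 0.09 and 0.28, Smarca4 at 0.04 and 0.25 and Smarcd2 at 0.07, with edgeR adjusted p values of 0.729, 0.184, 0.856, 0.117 and 0.791. Actl6a stood at 0.38 and 0.58 after the correction and passed in both lines (edgeR adjusted p = 0.0374 and 0.00215). Without scr NT replicate 2, 0 of the 10 genes were called for Zn in Baf180 KD, and Actl6a there stood at 0.40 with an edgeR adjusted p of 0.0616. Without the library of fewest counts the Baf250a KD differences were 0.50 for Smarca4 and 0.63 for Smarcd3 (edgeR adjusted p = 0.0118 and 0.00620). Without Baf250a KD Zn replicate 1 the Smarca4 and Smarcd3 calls for Zn in Baf250a KD were lost as well.

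**Figure D4:**
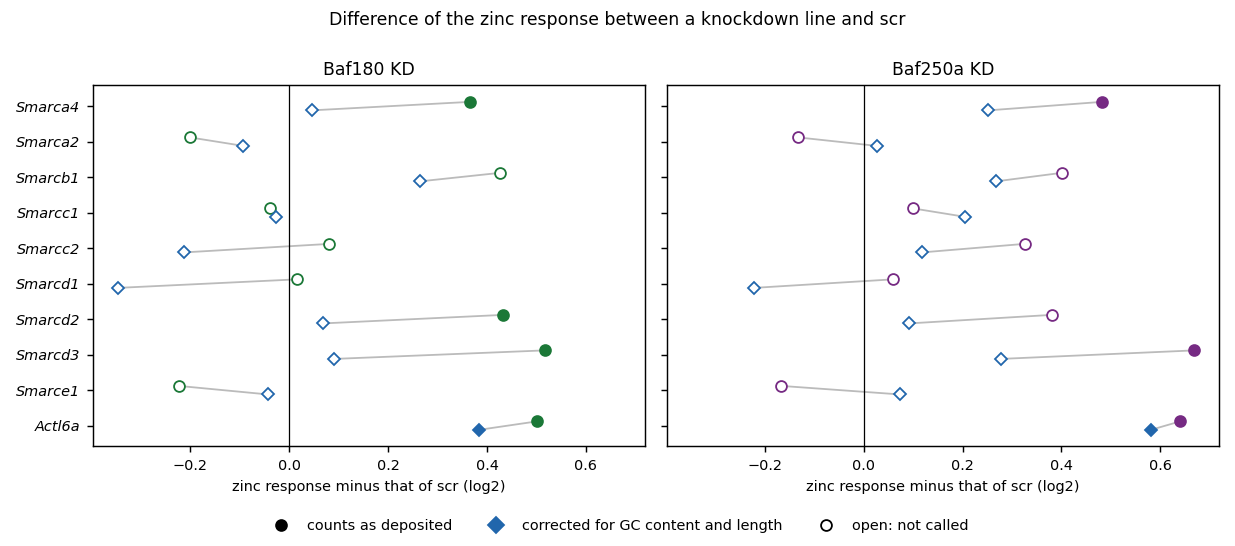
Zn response of Baf180 KD (left) and Baf250a KD (right) minus that of scr, on the log2 scale, for each of the 10 genes, from the counts as deposited (circles) and after removal of GC content and length trends (diamonds); filled symbols passed an edgeR adjusted p of 0.05. Actl6a is filled in both forms, at 0.50 and 0.38 on the left and at 0.64 and 0.58 on the right, while the other filled circles have open diamonds.

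The correction also bore on the KD comparisons. The calls of Smarca2, Smarcb1, Smarcd1, Smarcd3 and Actl6a against untreated scr were kept under it, and Smarca2 stood at 1.69, 1.99 and 1.87 on the log2 scale. In untreated Baf180 KD it added Smarcd2 at −0.24 (edgeR adjusted p = 0.0457). In untreated Baf250a KD it added Smarca4 at −0.18, Smarcc1 at −0.30, Smarcc2 at −0.22 and Smarcd2 at −0.23, so that 9 of the 10 genes were called, against 61.9% of all genes under the same correction (edgeR adjusted p of the added genes 0.0373, 0.00217, 0.0308 and 0.0219).

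The variance of the 10 genes was divided between line, treatment within line and replicate. Over the 23 libraries without that of fewest counts, line held 95.9% of the variance of log2 CPM for Smarca2, 84.3% for Actl6a, 84.2% for Smarcd1, 73.8% for Smarcd3 and 70.7% for Smarcb1. Treatment within line held 2.25% for Smarca2 and 13.7% for Actl6a. Line held less for Smarcc2, Smarcc1, Smarce1 and Smarca4, at 44.3%, 37.8%, 34.5% and 33.9%. For Smarcd2 treatment within line held more, 54.7%, than line, 18.6%. Over the 12 condition means Smarcb1 and Actl6a followed each other most closely among the 10 genes (Pearson r = 0.96), followed by Smarcb1 and Smarcd3 (r = 0.86) and Smarca2 and Smarcd1 (r = 0.85), with the conditions of a line sharing their cells. Among 10411 other genes, those most like Smarca2 over the 12 means were Chst11 and Sh3bp1 (r = 0.97 and 0.96), those most like Smarcd1 were Carm1 and Kcnk2 (0.99 and 0.98), and those most like Actl6a were Cct2 and Ccne1 (0.99 each). Without the library of fewest counts the 3 pairs of members had r of 0.94, 0.82 and 0.88, and Smarcd3 and Actl6a had 0.87. Cct2 and Ccne1 were again those most like Actl6a, while Brinp3 and Igfbp3 took the place of the genes most like Smarca2, and Rap2a that of Carm1 (r = 0.98 for each of the 3).

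Of 16 other SWI/SNF subunits, 14 could be tested. Without metal 2 were higher and 2 lower in Baf180 KD, 2 higher and 5 lower in Baf250a KD, and 2 higher and 0 lower in Brd9 KD, against 41.0%, 57.8% and 29.2% of all genes called in the 3 lines. Arid2, the ARID subunit of PBAF, and Bicral, a subunit of non-canonical BAF, were higher without metal in all 3 lines. Arid2 was higher by 0.52, 0.33 and 0.31 and Bicral by 0.31, 0.28 and 0.47 on the log2 scale. Over all treatments, Arid2 lay above all scr libraries in 4, 1 and 0 of the 6 libraries of these lines, and below all in 1 of Baf250a KD. Bicral lay above in 2, 4 and 6. Phf10, a PBAF subunit, was lower in Baf180 KD by 0.48 (log2 fold change −0.48) and in Baf250a KD (−0.85), with −0.13 in Brd9 KD not called without metal. Over all treatments Phf10 lay below all scr libraries in all 6 libraries of each of the 3 lines, Brd9 KD included. Such a position was held by 8.85%, 13.5% and 6.36% of all genes in Baf180, Baf250a and Brd9 KD. Dpf2, a canonical BAF subunit, was lower in the same lines (−0.32 and −0.38). Arid1b, the paralog of Arid1a, was not called without metal (0.12, 0.19 and −0.07) and was higher over all treatments in Baf180 and Baf250a KD (0.17 and 0.23). Of the targeted genes, Pbrm1 was higher in untreated Baf250a and Brd9 KD, by 0.82 and 0.79, while over all treatments its values of 0.20 and 0.24 were not called (edgeR adjusted p = 0.333 and 0.319). Brd9 was higher in Baf250a KD without metal and over all treatments, by 0.38 and 0.47, and in Baf180 KD over all treatments, by 0.40, with 0.34 without metal not called (edgeR adjusted p = 0.0539). Of 16 tested ATPases of other remodellers, 6, 6 and 4 were higher and 1, 2 and 0 lower without metal, beside 21.7%, 28.9% and 15.1% of all genes higher and 19.3%, 28.9% and 14.1% lower. Atrx and Chd9 were higher without metal in all 3 lines, Atrx by 1.15, 1.13 and 1.29 and Chd9 by 1.10, 1.34 and 0.84. Over all treatments Atrx was not called in any line (−0.23, −0.06 and 0.05). Chd9 lay above all scr libraries in 3, 5 and 2 of the 6 libraries of these lines.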

How the data were processed

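RNA of 24 libraries, 12 conditions with 2 replicates each, had been depleted of ribosomal RNA and sequenced with strand information. Per the paper's methods, reads were aligned to mm10 with STAR and uniquely mapped pairs were counted per gene with featureCounts, and the authors deposited raw counts per gene symbol. The submitters' processing notes also name DESeq2 and deepTools. Deposited tables of the authors' own comparisons hold fold changes and p-values and were not used. Groups were taken from sample titles, since a treatment label contradicted them. Counts of each comparison were filtered with filterByExpr, scaled by TMM and tested with edgeR 4.0.16 (R 4.3.3) quasi-likelihood fits, with Benjamini-Hochberg adjustment over all genes tested and a threshold of 0.05. CPM were computed from these counts, and a prior count of 2 was used for log2 CPM. Untreated lines were compared in fits of 4 libraries, metals within a line in fits of its 6 libraries, and comparisons over all treatments and differences in metal response in fits of all 24. Paralog ratios used counts plus 0.5 and a two-sided exact permutation test. All 10 genes are named, with the targeted genes, and genes outside them were named from lists of other subunits and remodellers. The members and lists were chosen with earlier results of these data known. Alternatives were DESeq2 1.42.0, RLE size factors, a minimum of 1 count, all 24 libraries in the fit, single treatments, a replicate block, leaving out each library, and a correction for GC content and length by splines with 5 degrees of freedom. The fits were tested on simulated data. Total counts of 495778 to 75179394 per library set the precision, and count intervals cover counting error only.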

Additional observations from a re-analysis of the deposited data

Results flagged for a closer look

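For 9 combinations of gene, metal and KD line, the response of the line differed from that of scr by the interaction term of the edgeR fit. All are on the log2 scale and all have a positive difference. For Cu in Baf180 KD these were Smarcd2 at 0.48 (SE 0.15, edgeR adjusted p = 0.0381) and Actl6a at 0.47 (SE 0.12, edgeR adjusted p = 0.0211). For Zn in Baf180 KD they were Smarca4 at 0.37 (SE 0.13, edgeR adjusted p = 0.0392), Smarcd2 at 0.43 (SE 0.15, edgeR adjusted p = 0.0341), Smarcd3 at 0.52 (SE 0.14, edgeR adjusted p = 0.0115) and Actl6a at 0.50 (SE 0.13, edgeR adjusted p = 0.00608). For Zn in Baf250a KD they were Smarca4 at 0.48 (SE 0.13, edgeR adjusted p = 0.00940), Smarcd3 at 0.67 (SE 0.16, edgeR adjusted p = 0.00348) and Actl6a at 0.64 (SE 0.14, edgeR adjusted p = 0.00159). All 9 share the untreated scr libraries. Of all genes, 12.8%, 28.7% and 30.5% were called in these comparisons, in the same order, and 5.39%, 16.1% and 17.3% with a positive difference. With GC content and length trends removed, Actl6a passed for Zn in both lines and the other 7 did not pass.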

How the results depend on the processing

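The 47 calls of the 10 genes were recomputed under 702 alternatives, of which 600 kept the call, 102 lost it and 0 changed its direction. Counts of genes called moved by more than 1.5 times as follows, and except for left-out libraries the cause was not tested. Removal of GC content and length trends gave 9 in untreated Baf250a KD and 8 over all treatments, against 61.9% and 62.0% of all genes. It gave 4 between Baf180 and Brd9 KD and 7 between Baf250a and Brd9 KD, against 32.7% and 53.5%. It gave 0 for Cu in Baf180 KD, against 4.87%. For the Cu and Zn responses of Baf180 KD against scr it gave 0 and 1, against 0.787% and 6.92%. For the Zn response of Baf250a KD it gave 1, against 17.7%. DESeq2 gave 6 in Brd9 KD over all treatments, 1 between Baf180 and Brd9 KD and 0 for Zn in Baf250a KD, and RLE size factors gave 1 between Baf180 and Brd9 KD. A minimum of 1 count gave 0 for both the Cu and the Zn response of Baf180 KD, against 7.04% and 11.7% of all genes. All 24 libraries in the fit gave 3 for Zn in scr, against 30.1%. The 4 Cu libraries alone gave 2 in Baf180 KD, against 24.9%. The labels give replicate numbers no shared source. The correlation of same-numbered deviations between untreated KD and scr libraries was −0.13 in Baf180 KD, −0.02 in Baf250a KD and −0.14 in Brd9 KD, and between treatments of a line it was 0.13 to 0.25 in Baf180 KD, −0.18 to 0.28 in scr, −0.00017 to 0.02 in Baf250a KD and −0.08 to 0.19 in Brd9 KD. A replicate block gave 2 in untreated Brd9 KD and 4 for Cu in Baf180 KD, against 25.0% and 25.5% of all genes. A block with crossed numbers, added after the data were seen, gave 7 in untreated Baf180 KD and 6 in untreated Brd9 KD. The shares of all genes under it were 54.0% and 51.9%. No share of all genes is given beside the leave-one-out counts that follow, which describe the 10 genes alone. Leaving out 1 library gave counts without metal of 3 to 7 in Baf180 KD (3 without Baf180 KD NT replicate 2, 7 without scr NT replicate 1), 5 to 6 in Baf250a KD and 1 to 5 in Brd9 KD (1 without either Brd9 KD NT replicate). Over all treatments it gave 3 to 5, 5 to 6 and 3 to 4 in these lines, 4 to 5 between Baf180 and Baf250a KD, 0 to 0 between Baf180 and Brd9 KD, and 2 to 6 between Baf250a and Brd9 KD (2 without Baf250a KD Cu replicate 1). It gave 0 to 1 for Cu in Baf180 KD, 0 to 2 for Zn in Baf250a KD, 0 to 3 and 0 to 5 for the Cu and Zn responses of Baf180 KD (0 for both without scr NT replicate 2), 2 to 4 for the Zn response of Baf250a KD, and 0 for every other metal comparison. The ratio of Smarca2 over Smarca4 differed from scr by 1.41 to 1.65, 1.39 to 2.13 and 1.60 to 1.84 with 1 library left out, Smarcc2 over Smarcc1 by −0.04 to −0.01, −0.16 to −0.11 and −0.16 to −0.13, Smarcd2 over Smarcd1 by −0.59 to −0.52, −0.65 to −0.55 and −0.43 to −0.35, and Smarcd3 over Smarcd1 by −0.86 to −0.80, −1.21 to −1.02 and −0.84 to −0.80. In the untreated libraries alone, which cannot reach an exact p under 0.05, the ratio of Smarca2 over Smarca4 differed by 1.98 in Baf180 KD, Smarcd2 over Smarcd1 by −0.85 in Baf180 KD and −0.81 in Baf250a KD, and Smarcd3 over Smarcd1 by −1.04 in Baf180 KD. With GC content and length trends removed, Smarcc2 over Smarcc1 in Brd9 KD differed by −0.12 (exact permutation test, adjusted p = 0.111). Depth limits Smarca2 in Baf250a KD Zn replicate 2, with 2 counts.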
